A study of Mus musculus with 23 samples.

Results

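The genes described here encode the subunits of the mitochondrial respiratory chain and of ATP synthase, and they were followed across 23 libraries of mouse endometrium. They were taken by symbol: the 13 protein-coding genes of mitochondrial DNA (mt-Nd, mt-Co, mt-Cytb and mt-Atp) and the nuclear genes named Nduf (a, b, c, s or v), Sdha to Sdhd, Uqcr, Cox4 to Cox8 and Atp5. The rule found 104 members among 18682 features, 13 of them mitochondrially and 91 nuclear encoded. Pseudogene names made up 7 of the 91 nuclear members, and the other 84 comprised 37 genes of complex I, 4 of complex II, 8 of complex III, 18 of complex IV and 17 of complex V. After the filter on low counts 103 members were tested, and the member that did not pass was Cox8b. Older names kept 4 related genes outside the rule: Ndufab1, Cyc1, Usmg5 and Atpif1. The symbols Cox6a2, Cox7b2, Cox8c, Ndufb4c and Atp5l-ps1, which the rule would also take, had no row in the table.

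In the study the endometrium of female C57BL/6 mice was damaged with ethanol, and 4 days later a treatment was placed in the uterine horns. The 4 groups were SHAM (6 horns), PBS after damage (5 horns), a hydrogel named HG (6 horns), and HG carrying human endometrial organoids, labelled HG+ORG (6 horns). The sources used here do not say what was done to the SHAM horns, nor give the age of the mice. Tissue was taken 2 weeks after the injection, the endometrium was pressed out of each horn and so parted from the myometrium, and its poly(A) RNA was sequenced. The labels do not tie horns to animals, so some horns may share a mouse and the p-values below may then be too small. The submitters' processing notes name a mouse genome build alone, and human organoid RNA that aligned to it cannot be told apart from mouse RNA.

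Oxidative phosphorylation passes electrons from NADH and succinate through complexes I to IV to oxygen, and ATP synthase, or complex V, uses the proton gradient this builds. Complexes I, III, IV and V join subunits made in the mitochondrion from its own DNA to subunits made in the cytosol from nuclear genes, and complex II is nuclear encoded throughout. The mitochondrial genes are transcribed as long polycistronic RNAs that are then cut and polyadenylated, while the nuclear genes are read 1 by 1 and answer to factors such as NRF1, the GABP proteins and the PGC-1 coactivators. In the endometrium, where epithelium, stroma, vessels and immune cells lie together, the amount of these RNAs per unit of tissue RNA also differs between cell types.

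The libraries held 7920918 to 14902952 counts each, with a median of 12701407. Levels are given as log2 CPM, the log2 of counts scaled to library size with TMM factors and 2 prior counts, on which 0 counts sit at -2.66. HG+ORG 18 stood apart from the other 22 libraries. The mean log2 CPM of 8 macrophage genes was 9.51 there and at most 6.42 elsewhere, that of 5 neutrophil genes was 8.57 against at most 5.34, and that of 10 epithelial genes was 6.25 against at least 8.16. SHAM 3 and HG+ORG 21 had cell cycle scores of 1.44 and 1.89, with 5.33 to 8.16 in the rest. SHAM 5 and SHAM 6 differed less than any other pair of 1 group (chi-square per degree of freedom 2.9, next pair 17.9), which is still more than sampling noise, and they were kept as 2 samples. The epithelial markers were expressed in every group (summed CPM of 932.9 to 15453 per horn), and smooth muscle markers were present too (31.8 to 3787 summed CPM).

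Nuclear genes of this family are known targets of NRF1, so promoter sequence is shown for the 7 nuclear members that hold CGCATGCG, the 8-base core of the NRF1 palindrome, wholly within the 250 bases before their start. They include a gene of low spread over the horns (Atp5g2, SD of log2 CPM 0.22) and a gene of high spread (Ndufa11, SD 0.70). Each line gives 100 bases from RefSeq on build GRCm38.p6, read 5′ to 3′ on the gene's strand, with the match in capitals. They belong to Ndufa8 at chr2:36049339-36049438 on the minus strand, Atp5k at chr5:108434400-108434499 on the minus strand, Cox6a1 at chr5:115349065-115349164 on the minus strand, Atp5l at chr9:44920893-44920992 on the minus strand, Atp5g2 at chr15:102671048-102671147 on the minus strand, Atp5j at chr16:84835069-84835168 on the minus strand and Ndufa11 at chr17:56717658-56717757 on the plus strand.
Ndufa8: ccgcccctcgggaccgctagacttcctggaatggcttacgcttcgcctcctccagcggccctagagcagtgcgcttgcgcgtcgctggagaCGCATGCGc
Atp5k: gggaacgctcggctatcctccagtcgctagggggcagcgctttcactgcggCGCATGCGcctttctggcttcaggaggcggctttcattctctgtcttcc
Cox6a1: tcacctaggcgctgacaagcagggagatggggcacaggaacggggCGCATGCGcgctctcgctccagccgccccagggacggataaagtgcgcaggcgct
Atp5l: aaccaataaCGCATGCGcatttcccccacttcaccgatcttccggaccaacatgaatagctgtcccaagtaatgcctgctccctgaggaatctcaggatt
Atp5g2: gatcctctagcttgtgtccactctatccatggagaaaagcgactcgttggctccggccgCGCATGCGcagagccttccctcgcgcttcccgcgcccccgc
Atp5j: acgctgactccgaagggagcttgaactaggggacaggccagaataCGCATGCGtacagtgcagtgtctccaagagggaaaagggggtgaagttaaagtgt
Ndufa11: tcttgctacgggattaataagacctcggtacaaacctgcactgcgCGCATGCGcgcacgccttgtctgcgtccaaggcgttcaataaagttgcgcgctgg

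The match begins 9 bases before the start in Ndufa8, 49 in Atp5k, 161 in Cox6a1, 241 in Atp5l, 41 in Atp5g2, 147 in Atp5j and 59 in Ndufa11. Promoter windows of 300 bases, from 250 before to 50 after the start, were found for 67 of the 84 nuclear members, and 9 of the 67 (13.4%) held CGCATGCG. The other 2 were Uqcr11, whose match spans the start, and Uqcrc1, whose match lies after it. The same letters, which read alike on both strands, stood in the windows of 2.1% of all genes of the RefSeq table and of 3.8% of those tested here. With any base allowed at the fourth position (CGCNTGCG, both strands, which includes the first motif) the share was 37.3% of the members, 9.2% of all genes and 17.5% of the genes tested. For CCGGAAGT, an ETS motif to which GABP proteins bind, searched on both strands, the share was 7.5% of the members, 4.3% of all genes and 8.3% of those tested. A match describes the letters of the window and is no evidence of binding in this tissue.

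On the mitochondrial genome 2 pairs of members share bases, which bears on which member a read was counted for. mt-Atp8 and mt-Atp6 overlap by 43 bases at chrM:7927-7969 on build GRCm38, plus strand, printed below with the start codon of mt-Atp6 and the stop codon of mt-Atp8 in capitals. mt-Nd4l and mt-Nd4 overlap by 7 bases at chrM:10167-10173.
mt-Atp8 and mt-Atp6: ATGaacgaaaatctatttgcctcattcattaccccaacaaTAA

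The 13 mitochondrially encoded members differed widely in level. Per length of gene, mt-Co1, the catalytic subunit of cytochrome c oxidase, had a mean of 11171 CPM per kilobase over the 23 horns, mt-Cytb, cytochrome b of complex III, 9078, and mt-Nd1 of complex I 6903. mt-Nd2 had 3958, mt-Nd4 3384, mt-Nd6 2281 and mt-Nd5 1614 CPM per kilobase, all complex I subunits of the membrane arm. The remaining members were far lower on the same scale: mt-Co2 219, mt-Atp6 53.8, mt-Co3 46.1, mt-Nd3 10.8, mt-Atp8 6.90 and mt-Nd4l 4.23. In counts, mt-Co1 alone held 36.6% of all counts of the 13, mt-Cytb 21.8% and mt-Nd1 13.9%. mt-Nd6 is the member encoded on the other strand, and the sources used here do not say whether the counting used strand.

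Of the 6 members with the lowest levels, 5 have near-identical nuclear copies. A nuclear copy of at least 99% identity over at least 90% of the gene, found by aligning reference transcripts, was listed in the table for 5 members: mt-Atp6, mt-Co2, mt-Co3, mt-Nd3 and mt-Nd4l. The copy of mt-Atp6, Gm10925, is identical over 678 bases and held 52071 counts, 495.4% of the 10510 counted for mt-Atp6 itself. Copies held 328.9% of the counts of mt-Co3, 371.4% of mt-Nd3, 375.4% of mt-Nd4l and 109.7% of mt-Co2. For the other members they held at most 1.4%, the share of mt-Co1. For mt-Cytb, mt-Nd1, mt-Nd6 and mt-Atp8 no copy was found among the reference transcripts, and copies outside them were not searched for. The counting could split reads between such copies, so the levels of these 5 genes are uncertain. mt-Atp8, with 418 counts over 23 libraries, and mt-Nd4l, with 374, rest on few counts as well. Over all 13 members the 11 copies took 1.31% to 2.23% of the members' counts, depending on the horn.

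Read by horn, the mitochondrially encoded members took from 1.47% of all counts in HG+ORG 20 to 11.1% in HG+ORG 19. In the SHAM horns the share was 3.79%, 6.63%, 4.00%, 1.54%, 2.69% and 2.35%, in horn order. The PBS horns had 9.20%, 1.78%, 3.17%, 4.82% and 4.40%. In the HG horns it was 7.96%, 4.14%, 2.54%, 4.62%, 6.63% and 9.26%, and in the HG+ORG horns 3.02%, 11.1%, 1.47%, 5.10%, 2.24% and 4.91%. Low and high horns occurred in every group, and the ranges of the 4 groups overlapped broadly. The group mean was highest in HG, at 5.86% ± 2.53 (SD, n = 6). PBS had 4.67% ± 2.80 (SD, n = 5), HG+ORG 4.64% ± 3.49 (SD, n = 6) and SHAM 3.50% ± 1.79 (SD, n = 6). The nuclear members took 0.81% (SHAM 3) to 1.46% (HG 13) of the counts.

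**Figure D1:**
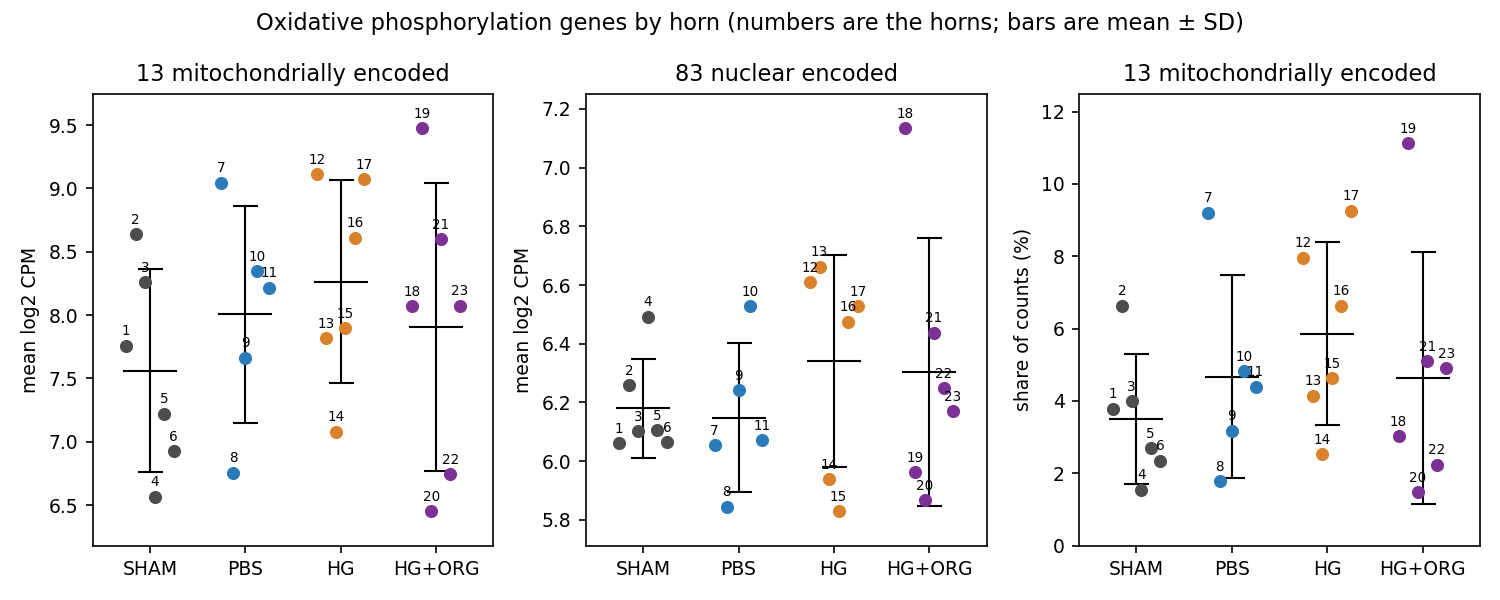
Each point is 1 horn, numbered as in the labels, by group; left, the mean log2 CPM of the 13 mitochondrially encoded genes; middle, that of 83 nuclear genes; right, the share of all counts in the 13 genes, in percent; lines with whiskers are group means ± SD. The mitochondrial means run from 6.45 to 9.48 and overlap in all 4 groups, while the nuclear means lie between 5.83 and 6.66 in 22 horns and at 7.13 in HG+ORG 18.

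The 13 mitochondrially encoded genes were high or low together in a horn, and in an order that the nuclear members shared only in part. Their mean log2 CPM was highest in HG+ORG 19 (9.48), HG 12 (9.11), HG 17 (9.07) and PBS 7 (9.04), and lowest in HG+ORG 20 (6.45), SHAM 4 (6.57), HG+ORG 22 (6.74) and PBS 8 (6.75). HG+ORG 19 was the highest horn for 9 of the 13 genes and HG+ORG 20 the lowest for 8, so both ends of the range lay in 1 group. The mean of 83 nuclear genes was highest in HG+ORG 18 (7.13), followed by HG 13 (6.66) and HG 12 (6.61). It was lowest in HG 15 (5.83), PBS 8 (5.85) and HG+ORG 20 (5.87). HG 12 was thus near the top of both orders, and PBS 8 and HG+ORG 20 near the bottom of both. HG+ORG 18 was the highest horn for 59 of these 83 genes and SHAM 4 for a further 10. The difference between the mitochondrial and the nuclear mean ran from 0.07 in SHAM 4 to 3.51 in HG+ORG 19 on the log2 scale. By group it averaged 1.92 ± 0.63 for HG (SD, 6 horns), 1.86 ± 0.78 for PBS (SD, 5 horns), 1.60 ± 1.16 for HG+ORG (SD, 6 horns) and 1.38 ± 0.87 for SHAM (SD, 6 horns). The means differed by less than the SD of any group.

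**Figure D2:**
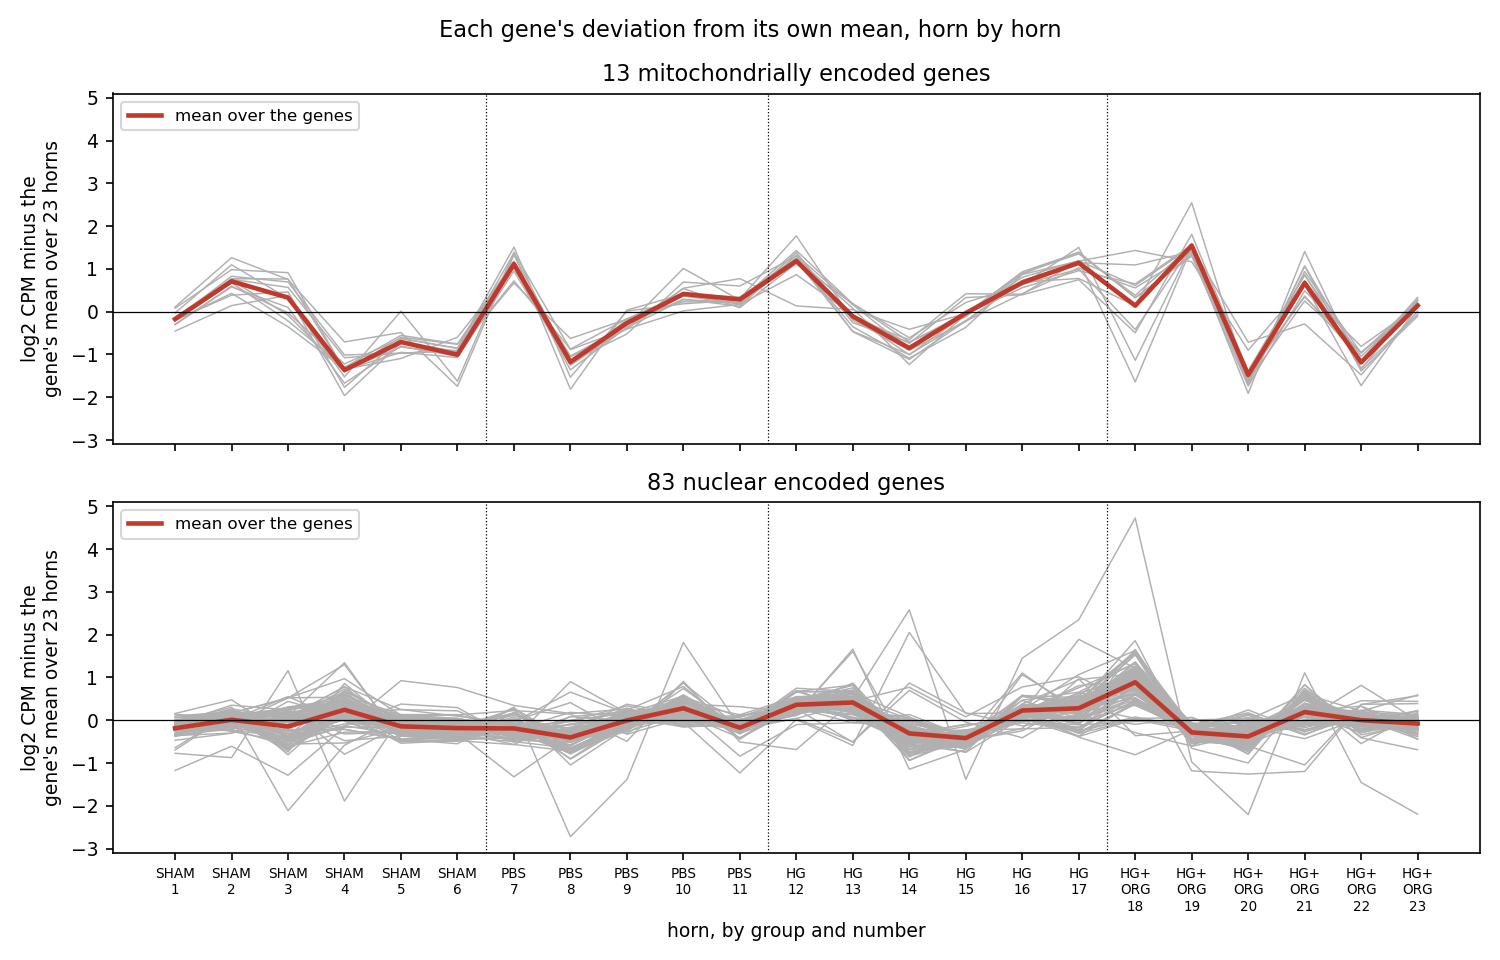
Each grey line is 1 gene and gives its log2 CPM in each horn minus its own mean over the 23 horns; the red line is the mean over the genes; top, 13 mitochondrially encoded genes, bottom, 83 nuclear encoded genes. The mitochondrial lines follow each other from horn to horn and lie farthest apart in HG+ORG 18, and most nuclear lines stay nearer to 0. Exceptions include many genes in HG+ORG 18 and a few isoforms such as Ndufa4l2, which reached 4.79 log2 CPM in that horn. Another is Ndufa11, with a mean of 6.23 and a highest value of 7.89 log2 CPM.

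In HG+ORG 18 the proportions among the 13 mitochondrially encoded genes also differed. The residual of a gene here is its deviation from its own mean over the horns less the mean deviation of the 13 genes in that horn. In HG+ORG 18 it was -1.78 for mt-Atp8 and -1.28 for mt-Nd4l, which have few counts, and -0.63 for mt-Co1 and -0.56 for mt-Nd5. mt-Nd3 had a residual of 1.29, mt-Nd6 0.95, mt-Co2 0.51 and mt-Nd1 0.47. mt-Co1 made up 23.8% of the counts of the 13 genes there and 51.3% in SHAM 3, the ends of its range. In HG+ORG 19, mt-Atp6 had a residual of 1.00.

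The comparisons between groups were made by edgeR's quasi-likelihood test over all 17708 features that passed the filter, with Benjamini-Hochberg adjustment. No member passed an adjusted p of 0.05 in any of the 6 comparisons or in the test across the 4 groups, and neither did any other gene, so that 0% of all features were called in each. DESeq2 called no member either, although it called 292 genes in HG against SHAM, 94 in HG+ORG against SHAM, 170 in HG+ORG against HG and 1 in PBS against SHAM, and limma-voom called none. Values below are therefore fitted log2 folds with their standard errors, read against the spread between horns, and none of them is a change that passed the test. The comparisons with SHAM share its 6 horns, and those with PBS and HG share theirs.

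In HG against SHAM, all 13 mitochondrially encoded members had fitted folds above 0, with a median of 0.79 on the log2 scale and a range of 0.26 to 1.08, where 50.2% of all features had a fold above 0 and the median of all was 0.00. The 7 complex I members ran from 0.48 to 1.08. mt-Nd6 had 1.08 (SE 0.58), mt-Nd4 0.99 (SE 0.52), mt-Nd2 0.95 (SE 0.49) and mt-Nd3 0.94 (SE 0.54), and mt-Nd5, mt-Nd1 and mt-Nd4l had 0.86, 0.79 and 0.48. mt-Cytb of complex III had 0.92 (SE 0.49). mt-Nd2 had the smallest p of the 13 (0.066 unadjusted, 0.4785 adjusted). The catalytic subunit mt-Co1 of complex IV had the smallest fold, 0.26 (SE 0.55), beside 0.50 for mt-Co2 and 0.42 for mt-Co3, and the ATP synthase subunits mt-Atp6 and mt-Atp8 had 0.47 and 0.43. None of the 13 had an unadjusted p under 0.05, a level that 11.3% of all features reached. Without the 5 members for which a full-length copy was found, the median of the other 8, mt-Atp8 among them, was 0.89.

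The level of mt-Nd2, which encodes a subunit of the membrane arm of complex I, shows the overlap behind this. Its log2 CPM in the SHAM horns ran from 10.45 through a median of 11.37 to 12.43, and in the HG horns from 10.88 through 12.30 to 13.14. In PBS the 5 values were 12.94, 10.50, 11.46, 12.05 and 11.88, and in HG+ORG they ran from 10.14 through 11.94 to 13.09. The lowest HG+ORG horn lay below every SHAM horn, and PBS 7 above every SHAM horn. mt-Co1 lay between 12.45 and 14.80 in the SHAM horns and between 13.08 and 14.68 in the HG horns, so that its highest SHAM value was above every HG value. mt-Cytb spanned 11.88 to 13.70 for SHAM and 12.40 to 14.50 for HG, with 3 of the 6 HG horns above the SHAM range.

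In PBS against SHAM all 13 folds were again above 0 (53.6% of all features), but the median was 0.48 and the range 0.05 to 0.85. mt-Nd3 had 0.85 (SE 0.56, unadjusted p 0.1437), mt-Nd6 0.78, mt-Nd5 0.64 and mt-Co1 0.05. This median was 0.09 without PBS 7 and 0.77 without SHAM 2, so single horns set its size. In HG+ORG against SHAM 12 of the 13 folds were above 0 (56.3% of all features), with a median of 0.52. mt-Nd6 had 1.04 (SE 0.58), mt-Atp6 0.94 (SE 0.58) and mt-Nd3 0.93, while mt-Atp8 had -0.20 (SE 0.64). Without HG+ORG 19, the highest horn, the median over the 13 was 0.07, and without HG+ORG 18 it was 0.54 with the same 12 of 13 above 0. In HG against SHAM the median stayed between 0.60 (without HG 12) and 1.03 (without SHAM 2).

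Among the injured groups the mitochondrially encoded members lay closer together. HG against PBS gave 12 of 13 folds above 0 (53% of all features) with a median of 0.23, which was 0.00 without HG 12 and 0.59 without PBS 7. HG+ORG against PBS gave 9 of 13 above 0 (55.3% of all features), with a median of 0.15 that was -0.24 without HG+ORG 19 and -0.03 by limma-voom. HG+ORG against HG gave 3 of 13 above 0 (55.7% of all features) with a median of -0.19. All 7 complex I members and mt-Cytb were below 0 there, from -0.01 for mt-Nd3 to -0.48 for mt-Nd2, and mt-Atp6 had 0.47. That median was -0.59 without HG+ORG 19 and 0.05 without HG 17, so its direction depended on single horns. It was 0.13 with the smooth muscle score as a covariate.

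The mitochondrial genes that the symbol rule leaves out, 2 ribosomal RNAs and 4 transfer RNAs listed in the table, had folds above 0 in all 6 cases in each comparison with SHAM, with medians of 0.86 in PBS, 0.88 in HG and 1.48 in HG+ORG. Without HG+ORG 18, the highest horn for these genes, the last median was 1.10, with all 6 still above 0. In HG+ORG 22 the 6 genes had a mean of 1.80 log2 CPM, with mt-Rnr1 at 6.83 and mt-Rnr2 at 7.08. The transfer RNAs thus lay far lower there than the ribosomal RNAs. mt-Rnr2, the large ribosomal RNA, had 1.71 (SE 0.73, unadjusted p 0.0289, adjusted 0.4346) in HG+ORG against SHAM and 1.12 without HG+ORG 18, the horn where it was highest at 11.54 log2 CPM. In SHAM it lay between 7.02 and 9.27. mt-Te, a transfer RNA for glutamate, had 1.91 (SE 0.77, unadjusted p 0.0219) in HG against SHAM. Of all features, 9.15% were higher at an unadjusted p under 0.05 in HG against SHAM and 8.09% in HG+ORG against SHAM.

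In HG against SHAM 65 of the 83 nuclear genes without pseudogene names had folds above 0, with a median of 0.20, and in HG+ORG against SHAM 66 of 83 with a median of 0.20. In PBS against SHAM 31 of 83 did, with a median of -0.06. The count in HG+ORG against SHAM rested on 1 horn: without HG+ORG 18 30 of 83 were above 0 in HG+ORG against SHAM and the median was -0.06. Leaving it out gave 65 of 83 in HG against SHAM, and that comparison had 76 of 83 and a median of 0.27 without SHAM 4. Against PBS, HG had 74 of 83 above 0 with a median of 0.21, and HG+ORG 72 of 83 with a median of 0.22, the latter being 40 of 83 and -0.01 without HG+ORG 18. HG+ORG against HG had 43 of 83 above 0 and a median of 0.02, but 3 of 83 and a median of -0.20 without HG+ORG 18. For fits with a horn left out, the share of all features above 0 is not given in this text. Their counts therefore describe the members without a background beside them. In bulk tissue, fewer cells of a type and less RNA per cell cannot be told apart, and the epithelial and immune marker scores of HG+ORG 18 given above moved with these counts. Their part in the result was not tested.

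**Figure D3:**
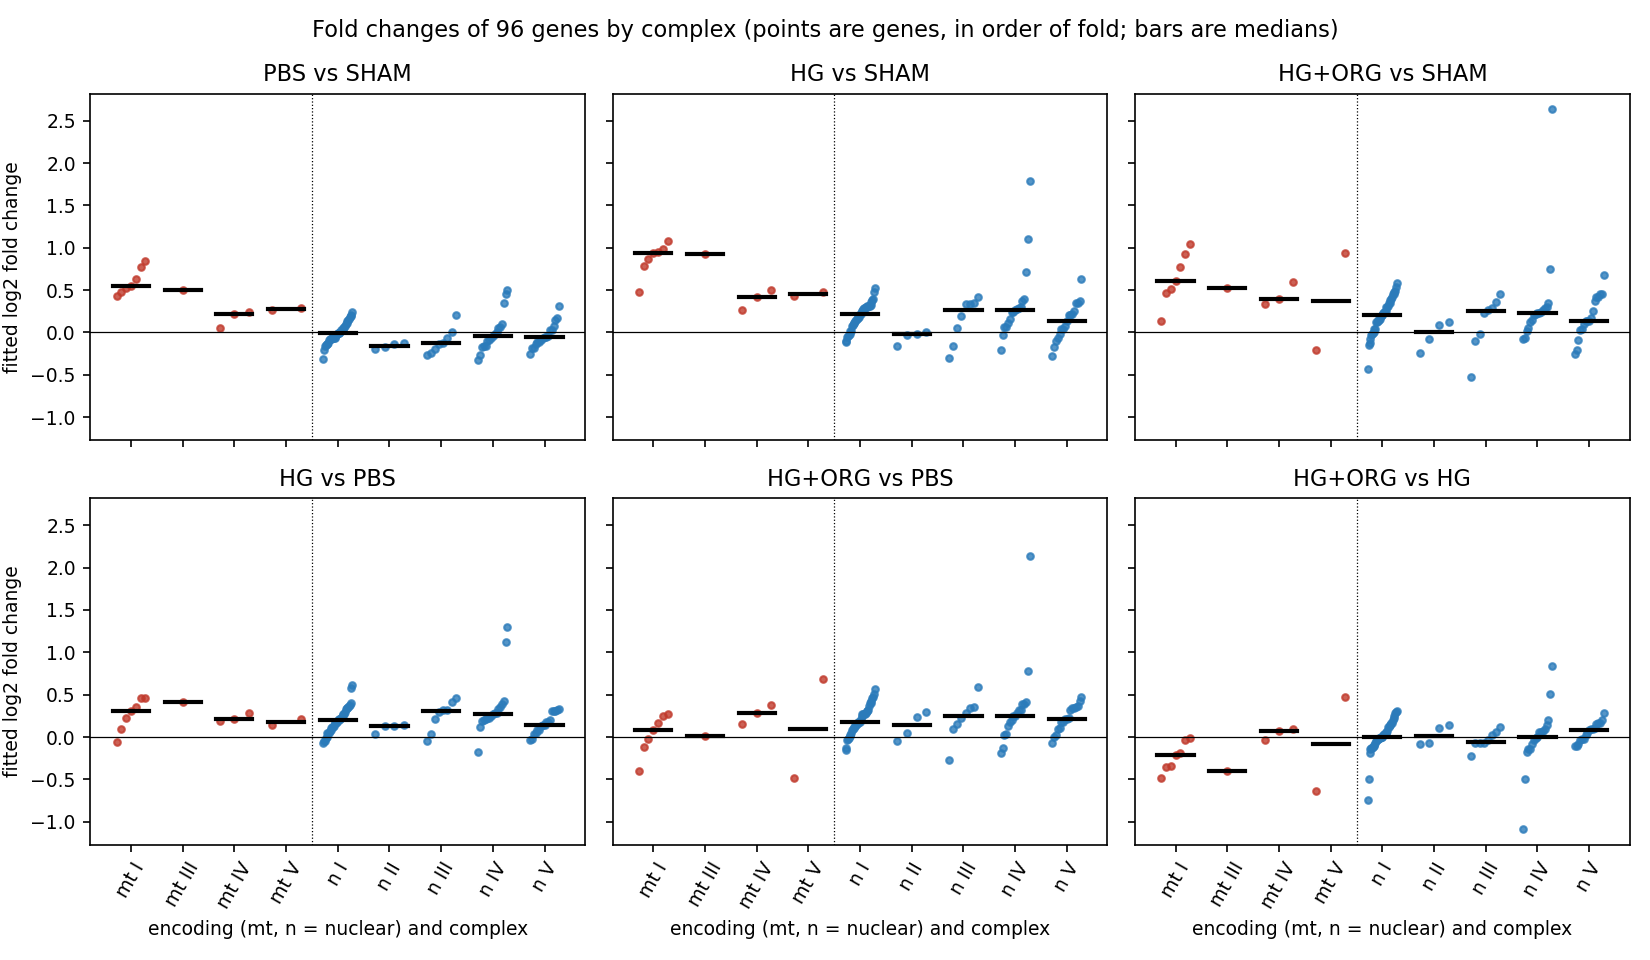
Each point is 1 gene and gives its fitted log2 fold in 1 of the 6 comparisons, with mitochondrially encoded genes (mt) in red and nuclear genes (n) in blue, split by complex, and bars at the medians. The mitochondrial points lie above 0 in the comparisons of PBS and HG with SHAM (13 of 13 in each). The nuclear points lie on both sides of 0, most of them above it where HG or HG+ORG is compared with SHAM or PBS. Ndufa4l2 lies at 2.64 in HG+ORG against SHAM.

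Complex I, the NADH dehydrogenase, has most of the nuclear members. In HG against SHAM 31 of its 37 genes had folds above 0, with a median of 0.22. In HG+ORG against SHAM 30 of 37 did, with a median of 0.20, and 15 of 37 with a median of -0.05 without HG+ORG 18. In PBS against SHAM 16 of 37 did, with a median of -0.01. Ndufb8, an accessory subunit of the membrane arm, had the smallest unadjusted p of these 83 nuclear genes in HG against SHAM. Its log2 CPM was 4.90, 5.23, 4.60, 4.93, 4.96 and 4.96 in the 6 SHAM horns, 5.36, 4.82, 4.97, 5.67 and 4.93 in PBS, and 5.88, 5.53, 5.16, 4.78, 5.28 and 5.83 in HG. In HG+ORG it was 6.28, 4.92, 4.75, 5.45, 5.25 and 5.41. In HG, 4 of the 6 horns lay above the highest SHAM horn, and HG 14 and HG 15 lay within the SHAM range. The fold was 0.52 in HG (SE 0.23, unadjusted p 0.0355, adjusted 0.3955) and 0.49 in HG+ORG (SE 0.23, unadjusted p 0.0461), the latter 0.23 without HG+ORG 18. At that unadjusted level 9.15% of all features were higher in HG and 8.09% in HG+ORG.

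The catalytic core genes Ndufs1 and Ndufv1 of complex I had folds between -0.16 and 0.04 in the comparisons with SHAM. Ndufs1, which carries iron-sulfur clusters of the electron path, had folds of -0.16, -0.05 and -0.15 in PBS, HG and HG+ORG. Ndufv1, the flavin subunit that accepts electrons from NADH, had -0.05, -0.10 and 0.04. Ndufa2, an accessory subunit, had 0.59 in HG+ORG against SHAM (SE 0.28, unadjusted p 0.0476), and its level of 8.18 in HG+ORG 18 stood above the 6.19 to 6.86 of the other 5 horns of the group. Without that horn its fold was 0.14. Ndufa11 and its near relative Ndufa11b were high in the same 3 horns, SHAM 4 (7.57 and 2.92), HG 13 (7.89 and 3.23) and HG 16 (7.29 and 2.72). Elsewhere Ndufa11 lay between 5.08 and 6.97.

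Complex II, succinate dehydrogenase, had 4 genes, and none had an unadjusted p under 0.05. Sdha, the flavoprotein that oxidises succinate, had folds below 0 in each comparison with SHAM: -0.20 in PBS, -0.16 in HG (SE 0.14) and -0.24 in HG+ORG (SE 0.14, unadjusted p 0.105). Its log2 CPM was 8.09 to 8.43 in SHAM, with 5 horns between 8.09 and 8.21 and SHAM 4 at 8.43. In PBS it was 7.82 to 8.23, in HG 7.66 to 8.54 and in HG+ORG 7.70 to 8.18. Sdhb, the iron-sulfur subunit, had -0.17, -0.03 and 0.12 in the same order, and the membrane anchors Sdhc and Sdhd lay between -0.14 and 0.09. The median of the complex was -0.02 in HG and 0.01 in HG+ORG against SHAM.

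Complex III, the cytochrome bc1 complex, had 6 of 8 nuclear genes above 0 in HG against SHAM (median 0.27) and 2 of 8 in PBS against SHAM (median -0.13). In HG+ORG against SHAM 5 of 8 were above 0 (median 0.25), and 1 of 8 (median -0.11) without HG+ORG 18. Uqcrc2, a core protein, had a fold of -0.53 in HG+ORG against SHAM (SE 0.19, unadjusted p 0.0113, adjusted 0.3214), -0.31 in HG and -0.26 in PBS. Across the 4 groups it had the smallest p of the 83 nuclear genes (0.0774 unadjusted). Its log2 CPM in SHAM was 6.87, 6.80, 7.41, 7.86, 7.01 and 6.92, in HG+ORG 6.08, 6.68, 6.87, 6.82, 6.93 and 6.46. The lowest value was that of HG+ORG 18, where most other nuclear members were highest, and the ranges of both groups met between 6.80 and 6.93. Without HG+ORG 18 the fold was -0.46. At an unadjusted p under 0.05, 1.82% of all features were lower in this comparison. The other core protein, Uqcrc1, lay between 7.39 and 7.41 in 5 SHAM horns and at 8.16 in SHAM 4, and its folds were -0.20, -0.16 and -0.10. Uqcrfs1, the Rieske iron-sulfur protein, had 0.29 in HG against PBS (SE 0.19). The small subunits Uqcrh, Uqcr10, Uqcr11 and Uqcrq had 0.42, 0.34, 0.33 and 0.33 in HG against SHAM, with SEs of 0.25 to 0.31, and 0.21, -0.07, 0.01 and -0.13 in PBS against SHAM.

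Complex IV, cytochrome c oxidase, passes electrons to oxygen, and 17 of its nuclear genes were tested. In HG against SHAM 15 of the 17 had folds above 0, with a median of 0.27. In HG+ORG against SHAM 15 of 17 did, with a median of 0.23, against 7 of 17 and -0.03 without HG+ORG 18. In PBS against SHAM 7 of 17 did, with a median of -0.04. Cox4i1, the regulatory subunit used in most tissues, had 8.43 to 9.01 log2 CPM in SHAM, 8.42 to 9.29 in PBS, 8.38 to 9.27 in HG and 8.26 to 9.85 in HG+ORG, with HG+ORG 18 at the top. Its folds against SHAM were 0.05, 0.24 and 0.30 in PBS, HG and HG+ORG, each with an SE of 0.24 or 0.25. The nuclear subunits Cox5a and Cox5b, which face the matrix, had -0.21 (SE 0.21) and 0.06 (SE 0.20) in HG against SHAM. Cox7a2l had 0.46 in PBS against SHAM (SE 0.24, unadjusted p 0.0707), the smallest p among the nuclear genes without pseudogene names in that comparison. Its level was 6.07 to 7.15 in SHAM and 6.65 to 7.52 in PBS.

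Tissue-restricted isoforms of complex IV had low levels, and Ndufa4l2 and Cox4i2 were the most variable of the nuclear genes tested. Per length, Cox7a1, the heart and muscle form, had 2.89 CPM per kilobase, Cox6b2, the testis form, 2.68, Ndufa4l2 2.28 and Cox4i2, the lung form, 1.19. Their common partners had 147 (Cox7a2), 289 (Cox6b1), 223 (Ndufa4) and 303 (Cox4i1) on the same scale. Ndufa4l2, a hypoxia-responsive relative of Ndufa4 known from pericytes, spanned a 175-fold range over the 23 horns. Its log2 CPM was 4.79 in HG+ORG 18, 2.64 in HG 14, 2.41 in HG 17 and 1.88 in PBS 10, and -2.66 (0 counts) in PBS 8. HG+ORG 18 alone held 222 of its 590 counts. The fold in HG+ORG against SHAM was 2.64 (SE 1.24, unadjusted p 0.0457) with that horn and -0.59 (SE 1.01) without it. In HG against SHAM it was 1.79 (SE 1.22), with 5 of 6 HG horns above 5 of 6 SHAM horns.

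Cox4i2 had a fold of 1.10 in HG against SHAM (SE 0.64, unadjusted p 0.0984) and of -1.08 in HG+ORG against HG (SE 0.64). Its log2 CPM was highest in HG 14 (1.85) and HG 17 (1.69), at 1.01 in HG+ORG 18, and at most 0.72 in the other horns. Without HG+ORG 18, HG+ORG against HG gave -1.57 for Cox4i2 (SE 0.65, unadjusted p 0.0257, adjusted 0.312) and -2.38 for Ndufa4l2 (SE 1.02, unadjusted p 0.0296, adjusted 0.331). The endothelial score, the mean log2 CPM of 8 endothelial genes, was 6.24 in HG 14, 5.82 in PBS 10, 5.46 in HG 17 and 5.45 in HG+ORG 18, the 4 horns with the highest scores, and these 4 also held the highest Ndufa4l2 levels. The match did not go on below them: PBS 7, with a score of 5.43, had 18 Ndufa4l2 counts, and SHAM 3, with 0.92, had 22. Cox4i2 had 8 counts in PBS 10. The part of vessel cells in either gene's fold was not tested. Cox7a1 stood at 2.49 in HG+ORG 18 and at -0.37 to 1.24 elsewhere, and its fold in HG+ORG against SHAM was 0.74 with that horn and 0.21 without it. Cox8b, a form of muscle and brown fat, had 57, 40, 79 and 15 counts in SHAM 5, SHAM 6, HG 12 and HG 13 and at most 5 in any other horn. The adipocyte score was 7.52, 7.10, 9.67 and 6.36 in those 4 horns and at most 5.58 elsewhere.

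**Figure D4:**
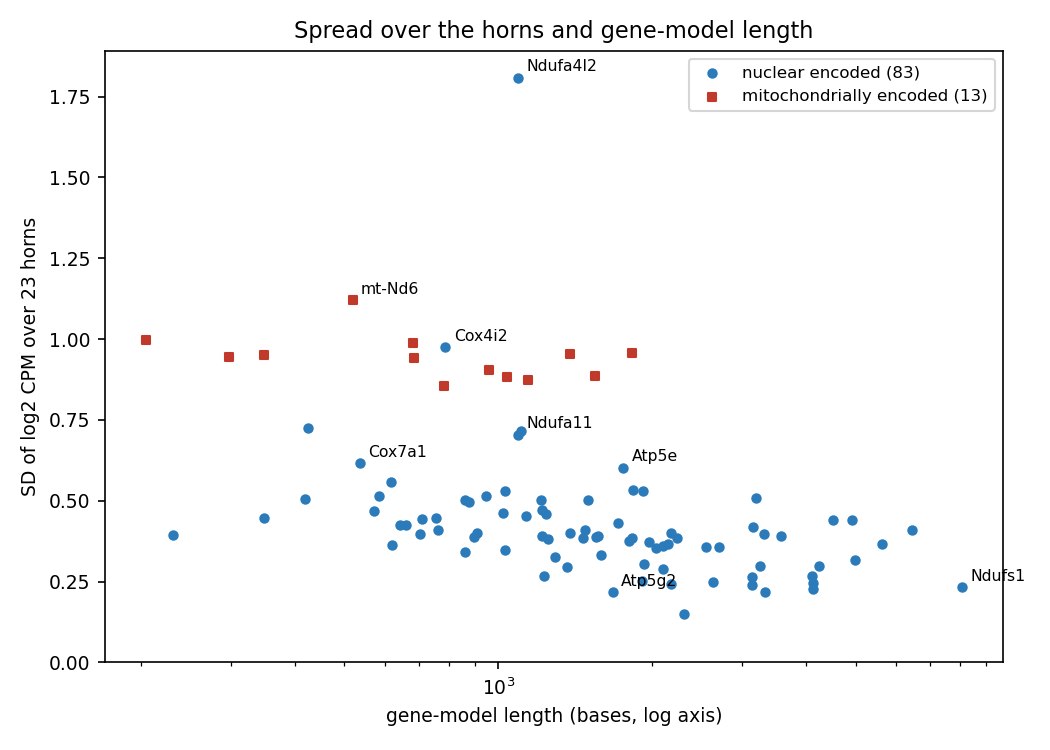
Each point is 1 gene, with the SD of its log2 CPM over the 23 horns on the vertical axis and its gene-model length in bases, on a log axis, on the horizontal axis; circles are 83 nuclear genes and squares 13 mitochondrially encoded genes. The 13 squares lie between 0.85 and 1.12, above all nuclear genes except Ndufa4l2 at 1.81 and Cox4i2 at 0.98.

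The spread over horns was larger for the mitochondrially encoded members. The SD of log2 CPM over the 23 horns had a median of 0.94 for the 13 mitochondrially encoded genes (0.85 to 1.12), of 0.39 for the 83 nuclear genes and of 0.27 for 12 core nuclear subunits. The median was 0.56 over all genes tested and 0.38 over the 6334 with a mean log2 CPM over 5. Among the least variable nuclear members were Atp5g2 (0.22) and Ndufa10 (0.22), and the most variable were Ndufa4l2 (1.81), Cox4i2 (0.98) and Ndufa11b (0.72). Genes with models of up to 1000 bases had a median SD of 0.45 (22 genes) and longer ones of 0.38 (61 genes). Across the 83 genes Spearman's rho of length and SD was -0.55, given as a description, since genes of 1 library share its depth and quality.

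Complex V, the ATP synthase, joins a catalytic head to a rotor in the membrane. Atp5a1 and Atp5b, the alpha and beta subunits of the catalytic head, had folds below 0 in each comparison with SHAM: -0.14, -0.18 and -0.20 for Atp5a1 and -0.25, -0.28 and -0.26 for Atp5b, with SEs of 0.16 to 0.20. Both were highest in SHAM 4, at 10.21 and 10.57 log2 CPM. Atp5c1, the gamma subunit, had -0.12, -0.07 and -0.09, and Atp5d, the delta subunit, -0.19, -0.11 and 0.17. The small epsilon subunit Atp5e had 0.32, 0.63 (SE 0.35) and 0.68 (SE 0.35, unadjusted p 0.0665) in the same comparisons, and 0.20 in HG+ORG without horn 18. Over the complex, 12 of 17 genes were above 0 in HG against SHAM (median 0.13) and 14 of 17 in HG+ORG against SHAM (median 0.14), the latter 7 of 17 (median -0.01) without HG+ORG 18. In PBS against SHAM 6 of 17 were above 0, with a median of -0.06. Atp5l, a subunit of the membrane part, had 0.47 in HG+ORG against PBS (SE 0.25), and 0.18 without HG+ORG 18, where its level was 6.30 against 4.40 to 5.58 in the rest of its group.

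The 3 genes Atp5g1, Atp5g2 and Atp5g3 encode the same mature c subunit of the rotor ring with different import sequences. Per length Atp5g3 was the highest, at 153 CPM per kilobase, followed by Atp5g2 at 33.9 and Atp5g1 at 11.6. Their folds were 0.20, 0.04 and 0.13 in HG against SHAM and 0.10, 0.13 and 0.03 in HG+ORG against SHAM, all smaller than their SEs. Atpif1, which encodes the inhibitor of the enzyme and lies outside the rule, was 7.87 log2 CPM in HG+ORG 18 and 5.68 to 7.06 in the other 22 horns.

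Among the pseudogene names, Uqcrh-ps2 and Atp5l-ps2 gave several of the smallest p-values, at very low levels. Ndufb1-ps, set apart from the nuclear genes by its name alone, was not low, with 27436 counts and a mean of 6.51 log2 CPM. Uqcrh-ps2 had -0.94 in PBS against SHAM (SE 0.35, unadjusted p 0.014), and was the 1 member there under an unadjusted p of 0.05, which 2.17% of all features reached. It had the smallest p of all members across the 4 groups (0.0490 unadjusted, 0.4921 adjusted), a level reached by 10.1% of all features. Its log2 CPM lay between -0.32 and 1.80 in the 23 horns. Atp5l-ps2 had 0.92 in HG (SE 0.42) and 1.20 in HG+ORG (SE 0.42, unadjusted p 0.0097, adjusted 0.30) against SHAM, at -1.64 to 0.82 log2 CPM. It had 2 to 7 counts in the SHAM horns and up to 16 in the damaged horns. It passed the low-count filter only through damaged horns, where it was higher. The small p of this pseudogene name is therefore no support for a difference from SHAM. Such copies can take reads of their parent genes.

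Counted over all 103 tested members, an unadjusted p under 0.05 was reached by 3 in HG against SHAM, 2 of them higher and 1 lower, where 9.15% of all features were higher and 2.12% lower. In HG+ORG against SHAM 5 members reached it (9.91% of all features), 4 of them higher and 1 lower. Among the 4 is Atp5l-ps2, which passed the low-count filter only through damaged horns. In PBS against SHAM the 1 member was lower (0.655% of all features) and none was higher (1.52%). Among the injured groups no member reached it in HG against PBS (3.37% of all features, 2.38% higher and 0.988% lower), in HG+ORG against PBS (6.09%, 4.86% higher and 1.23% lower) or in HG+ORG against HG (9.81%, 5.18% higher and 4.63% lower).

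Pairs of subunits that meet in 1 complex were compared across the 23 horns, as 4 pairs, 1 for each complex with both kinds of subunit. The p-values are from permutation tests, 2-sided, and adjusted over the 4 pairs. mt-Atp6 and Atp5b of ATP synthase had Spearman's rho of -0.47 (permutation p 0.0236, adjusted 0.0944) and Pearson's r of -0.46 (permutation p 0.0286, adjusted 0.114). The level of mt-Atp6 is uncertain, as its nuclear copy held 495.4% of its counts. mt-Co1 and Cox4i1 of complex IV had rho 0.37 (permutation p 0.0806, adjusted 0.161) and r 0.30 (adjusted 0.335). Without HG+ORG 18 that pair had rho 0.44 (permutation p 0.0432, adjusted 0.0864) and r 0.45 (permutation p 0.034, adjusted 0.068), while mt-Atp6 and Atp5b had rho -0.48 and r -0.46. For mt-Nd1 and Ndufs1 of complex I rho was -0.15 (permutation p 0.482) and r -0.12, and for mt-Cytb and Uqcrc1 of complex III rho was -0.18 (permutation p 0.405) and r -0.20. No pair passed the adjustment, with or without HG+ORG 18.

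Within groups of 6 horns, rho of mt-Co1 and Cox4i1 was 0.31 in SHAM, 0.54 in HG and 0.49 in HG+ORG, and that of mt-Cytb and Uqcrc1 was -0.37, -0.09 and -0.54. For mt-Nd1 and Ndufs1 it was -0.77, 0.60 and -0.14. For mt-Atp6 and Atp5b, rho was -0.94 within SHAM (exact permutation p 0.0167, adjusted 0.0667), 0.60 within HG (exact permutation p 0.242) and -0.54 within HG+ORG (exact permutation p 0.297), and PBS, with 5 horns, was not tested. SHAM 5 and SHAM 6, the pair that differed least, entered as 2 horns, so the p within SHAM may be too small. After group means were subtracted, rho of mt-Atp6 and Atp5b was -0.40 (permutation p 0.0585). Without the 2 horns farthest in mt-Atp6, HG+ORG 19 and HG+ORG 20, r was -0.41 (permutation p 0.0652). Without the 2 farthest, r was 0.30 for mt-Co1 and Cox4i1, 0.09 for mt-Nd1 and Ndufs1 and -0.34 for mt-Cytb and Uqcrc1. SHAM 4 had Atp5b at its highest of all 23 horns and a mitochondrial mean of 6.57, the second lowest.

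**Figure D5:**
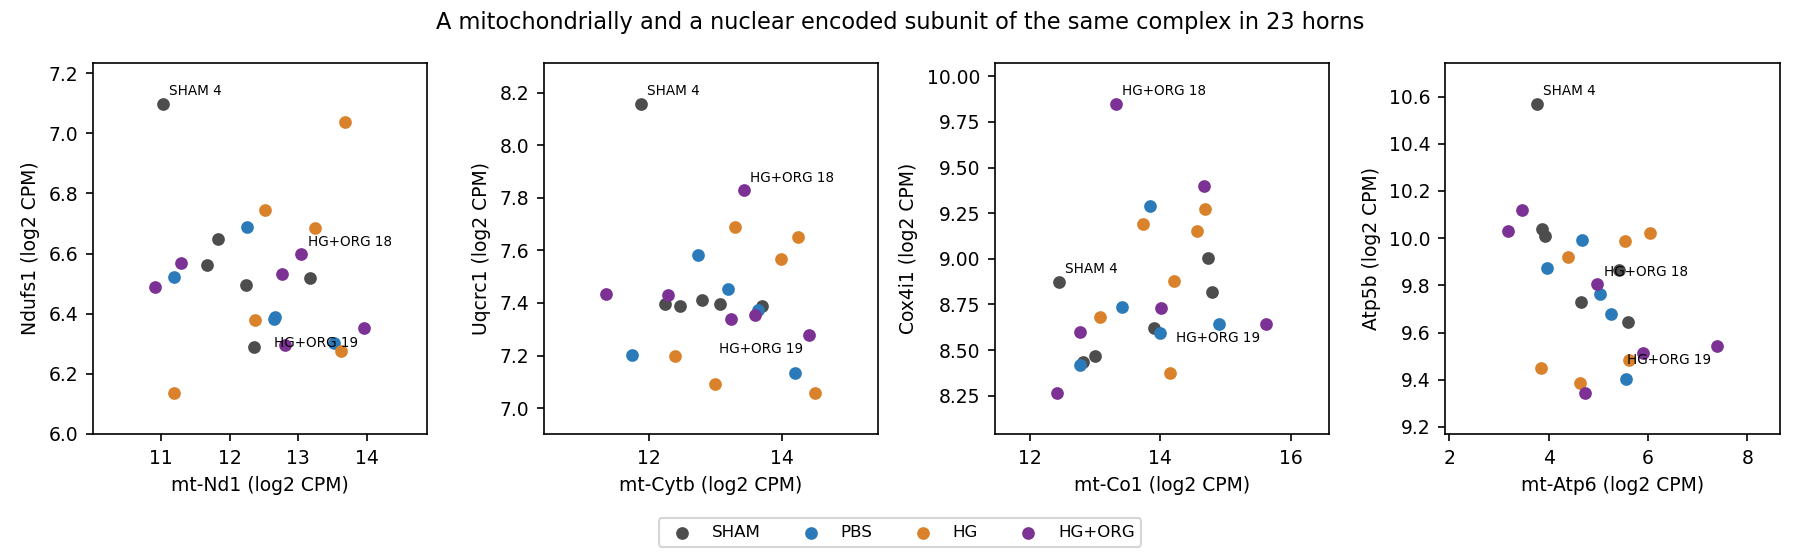
Each point is 1 horn, coloured by group, with the log2 CPM of a mitochondrially encoded subunit on the horizontal axis and that of a nuclear subunit of the same complex on the vertical axis, for 4 pairs; SHAM 4, HG+ORG 18 and HG+ORG 19 are named. The pairs have Spearman's rho of -0.15, -0.18, 0.37 and -0.47, and the groups overlap in every panel.

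Genes that build or control the complexes were read from lists. Of 44 assembly factors, 32 had folds above 0 in HG against SHAM (median 0.12), 30 in PBS (median 0.03) and 34 in HG+ORG (median 0.11), the latter 20 of 44 without HG+ORG 18. Cox17, the copper chaperone of complex IV, had 0.98 in HG+ORG against SHAM (SE 0.35, unadjusted p 0.0102, adjusted 0.3093). Its log2 CPM was 8.31 in HG+ORG 18, 6.73 in HG+ORG 21 and 5.45 to 6.29 in the other 21 horns, and without HG+ORG 18 the fold was 0.25. Sdhaf4, an assembly factor of complex II, had 0.39 (SE 0.23), 0.52 (SE 0.22, unadjusted p 0.0263) and 0.59 (SE 0.22, unadjusted p 0.0124) in PBS, HG and HG+ORG, and 0.35 in HG+ORG without horn 18. SHAM 3 was its lowest horn, at 3.15, and the other SHAM horns lay between 4.04 and 4.35.

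Of 9 nuclear regulators of mitochondrial genes, 1 had a fold above 0 in HG against SHAM, 1 in PBS and 2 in HG+ORG, with medians of -0.14, -0.16 and -0.11. Nrf1 had -0.20 in HG (SE 0.12, unadjusted p 0.11) and -0.05 in HG+ORG, and Gabpa, a subunit of GABP, had -0.09 and -0.13. Ppargc1a, a coactivator of mitochondrial biogenesis, had -0.33 and -0.35, with SEs of 0.47, and its relative Ppargc1b had -0.97 in PBS against SHAM (SE 0.38, unadjusted p 0.018, adjusted 0.9995). Tfam, which packages and transcribes mitochondrial DNA, had -0.06, -0.08 and -0.16 in PBS, HG and HG+ORG, so its values lay on the other side of 0 from most of the mitochondrially encoded genes. Mterf3, a regulator of mitochondrial transcription, had 0.30 in HG (SE 0.12, unadjusted p 0.0203) and 0.28 in HG+ORG (SE 0.12, unadjusted p 0.0303). Among 14 genes of mitochondrial DNA expression and copying 7 were above 0 in HG and 7 in HG+ORG against SHAM.

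The enzymes that feed the chain had folds nearer to or below 0. Of 18 genes of the TCA cycle and pyruvate dehydrogenase, 1 was above 0 in PBS, 7 in HG and 3 in HG+ORG against SHAM, with medians of -0.13, -0.02 and -0.18, and none of the 18 was above 0 in HG+ORG without horn 18 (median -0.22). Pdha1, the pyruvate dehydrogenase subunit, had -0.41 (SE 0.18, unadjusted p 0.0364, adjusted 0.4618) in HG+ORG against SHAM. Pdha1 lay between 7.30 and 7.65 in the SHAM horns and between 6.36 and 7.33 with HG+ORG. Ucp2, a carrier of the inner membrane abundant in immune cells, was 11.02 in HG+ORG 18 and 8.50 to 9.75 elsewhere. Of 81 mitochondrial ribosomal genes 54 were above 0 in HG (median 0.07) and 62 in HG+ORG (median 0.12), the latter 37 of 81 without HG+ORG 18.

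Cytosolic ribosomal genes, which are short, abundant and nuclear like many of the members, are a comparison set. Of 99 genes, 9 of them S6 kinase genes taken by the symbol pattern, 90 were above 0 in HG against SHAM (median 0.30), 90 in HG+ORG (median 0.25) and 86 in PBS (median 0.17). Without HG+ORG 18 the count in HG+ORG was 66 of 99 and the median 0.04. These medians lie beside 0.20, 0.20 and -0.06 for the nuclear members, and the 2 lists were not tested against each other.

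The 12 smooth muscle markers were all above 0 in HG against SHAM, with a median fold of 3.68, and had summed CPM of 60.3, 109 and 150 (lowest, median, highest) in SHAM, 31.8, 117 and 1857 in PBS, 124, 969 and 3787 in HG, and 34.2, 99.7 and 555 in HG+ORG. The 8 endothelial markers had a median fold of 2.91 in HG against SHAM, with 16.6 to 101 summed CPM in SHAM and 64.2 to 721 in HG. The 8 endometrial stroma markers were all above 0 there, with a median fold of 2.82 and 6 at an unadjusted p under 0.05, and had 186 to 413 summed CPM in SHAM and 310 to 1746 in HG. The 5 erythrocyte markers had a median fold of 2.34 in HG and 2.38 in PBS against SHAM, all 5 at an unadjusted p under 0.05 in each. Of all features, 11.3% reached that level in HG against SHAM and 2.17% in PBS against SHAM. The 8 macrophage markers had 99.6 to 470 summed CPM in SHAM, 54.3 to 678 in PBS, 221 to 936 in HG and 144 to 19885 in HG+ORG, the top value being HG+ORG 18. The 10 epithelial markers had a median fold of -0.55 in HG against SHAM, with 0 of 10 above 0. No listed marker of these types was at 0 in all horns. With the smooth muscle score as a covariate, the median of the nuclear members in HG against SHAM was -0.05 (21 of 83 above 0) and that of the mitochondrially encoded members 0.43 (12 of 13 above 0). In HG+ORG against HG the same covariate gave 72 of 83 nuclear members above 0, with a median of 0.24. The share of all features above 0 in the fit with the covariate is not given here, so these counts stand without a background. The part of any single cell type in these values was not tested.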

How the data were processed

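The authors sequenced poly(A)-selected RNA of 23 uterine horns with a stranded single-end protocol, per the labels' protocols. The submitters' processing notes name HISAT2 2.2.1, featureCounts 2.0.3, Trimmomatic 0.39, SAMtools 1.21, FastQC 0.11.9, MultiQC 1.27.1, DESeq2 1.42.1, R 4.3.1 and build GRCm39, without their roles. The sources used here give neither the annotation release nor the strand setting. The authors deposited raw read counts per gene, and these were used as deposited. Of 18682 features, 18341 had a symbol in the reference tables, and 974 did not pass edgeR's filterByExpr, leaving 17708.

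edgeR 4.0.16 in R 4.3.3 (TMM factors, quasi-likelihood test, 1 fit over the 4 groups) gave the log2 folds, with the SE as the fold divided by the square root of F and Benjamini-Hochberg adjustment over all 17708 features. The threshold was an adjusted p of 0.05. The code was tested on simulated counts. Alternatives were DESeq2 1.42.0, limma-voom (limma 3.58.1), upper-quartile factors, no low-count filter, library sizes without the mitochondrial genes, a fit of only the groups compared, the smooth muscle score as a covariate, a prior count of 0.5, and each horn left out. Summing SHAM 5 and SHAM 6, leaving out HG+ORG 18 with SHAM 6, dropping members with a full-length copy, and the pair relations without group means were added after the data were seen. The pair relations without the 2 farthest horns were part of the planned pair test. Permutation tests of the pairs used 100000 resamples, or all orders within groups.

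The members and lists were chosen with earlier results of these data known. Genes named singly were all mitochondrial members, 12 core subunits, tissue isoforms, the Atp5g genes, Atpif1, the nuclear members with the smallest p in each direction of each comparison (3) and across the 4 groups (5), the 3 smallest and largest SDs, and list genes where their list is described. Other genes were named after their values were seen. With no annotation of the files' build here, gene coordinates are given only with printed sequence, on GRCm38. Some items that the rule for named genes would include are not reported here. The promoter motif was shortened to its core after a longer form had been searched.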

Additional observations from a re-analysis of the deposited data

Results flagged for a closer look

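In 20 of 260 groups of horns checked, 1 horn stood apart from the rest of its group by Dixon's criterion at 95%. Chance alone gives about 1 in 20 such groups, and many genes share the same horn. All values are log2 CPM.

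SHAM 4 accounted for 9 of them. Its mean over the nuclear genes of complex III was 7.40, with 6.78 to 6.96 in the other SHAM horns. Uqcrc1 was 8.16 (7.39 to 7.41), Atp5a1 10.21 (9.48 to 9.61), Atp5g3 8.98 (8.15 to 8.42), Atp5l 5.375 (4.75 to 4.95), Cox5b 7.27 (6.60 to 6.78), Cox7a2 7.64 (6.71 to 6.97), Ndufa9 6.66 (5.96 to 6.14) and Sdha 8.43 (8.09 to 8.21).

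HG+ORG 18, the horn with the high macrophage score, accounted for 7. Its mean over complex V was 7.82 (6.77 to 7.15 in the other HG+ORG horns). Atp5g1 was 6.72 (5.42 to 5.91), Ndufa2 8.18 (6.19 to 6.86), Ndufb7 7.64 (6.03 to 6.51), Ndufa9 6.47 (5.92 to 6.05) and Uqcrc1 7.83 (7.28 to 7.43). Cox8b was -0.92 there and at the floor of -2.66 in the other 5.

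SHAM 3, 1 of the 2 horns with a low cell cycle score, had 2, both low: Ndufv1 at 5.99 (6.51 to 6.74) and Cox6b2 at -0.62 (0.92 to 1.70). In PBS, Atpif1 was 5.68 in PBS 8 (6.32 to 6.55) and Cox4i2 was -1.44 in PBS 11 (-0.24 to 0.14).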

How the results depend on the processing

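No member was called in any of the 6 comparisons or across the 4 groups under any of the 32 settings, and 679 of 687 alternatives to the main values kept their direction and side of the threshold or moved by less than the spread between horns. The 8 that moved all concern the mitochondrial minus nuclear difference in log2 CPM, which depends on the summary: with the median over members it was 2.75 in SHAM, 3.43 in PBS, 3.59 in HG and 3.31 in HG+ORG, and with members without a full-length copy 3.99, 4.45, 4.62 and 4.19. With single horns left out, it ran from 1.18 to 1.64 in SHAM, 1.57 to 2.09 in PBS, 1.80 to 2.08 in HG and 1.22 to 1.82 in HG+ORG. Medians of folds changed sign in 21 cases. Besides those given with the results, the nuclear median in PBS against SHAM was 0.04 without SHAM 4 and 0.02 without PBS 8, the mitochondrial median in HG+ORG against PBS was -0.04 without PBS 8, that in HG+ORG against HG was 0.00 without HG 12 and 0.01 without HG+ORG 20, and the nuclear median in HG+ORG against HG was -0.02 by limma-voom and by upper-quartile factors, -0.05 without HG 14, -0.06 without HG 15 and -0.02 without HG+ORG 21. Of 252 folds of named genes, 127 changed sign under at least 1 setting, so single signs near 0 carry little. The causes were not tested. No paired analysis was possible because the replicate numbers run on through the groups and none is shared. The counts of mt-Nd4l, mt-Atp8 and the pseudogene names other than Ndufb1-ps are too low to show small differences.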
